A study of Mus musculus with 4 samples.

Results

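Fibroblast-gated cells of the mouse vagal ganglia were chosen by their own transcript counts, as segmented cells with at least 8 transcripts, at least 2 transcripts of the connective tissue genes *Mfap4*, *Comp*, *Lum*, *Dpt*, *Mfap5*, *Pi16* and *Aspn*, and at most 1 transcript of each of 4 other gate lists. These lists were *Snap25*, *Tubb3*, *Scg2* and *Gap43* for neurons, *Car3* and *Pck1* for fat, *Prx* for Schwann cells, and *Eng*, *Kdr*, *Tie1*, *Plvap*, *Clec14a*, *Sox17*, *Vwf* and *Gpihbp1* for endothelium. The gate kept 198 of 9785 segmented cells, and 198 of the 5363 cells with at least 8 transcripts. The tissue was profiled with Xenium, an imaging assay in which padlock probes are decoded in place and each decoded spot is counted as 1 transcript of a panel gene.

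Vagal ganglia of mice labelled adult, male and C57BL/6 (the study's methods give the substrain as C57BL/6J and name mice of both sexes) were sampled as 3 sections of 5 µm from paraformaldehyde-fixed, paraffin-embedded tissue. All mice had received an extract of the mould *A. alternata* intranasally at 25 µg/mL in 50 µL of PBS on days 0, 3, 6 and 9, with tissue taken 16 h after the last dose, so every section is from this allergic airway model and no untreated ganglion was analysed here. The labels do not state whether the sections came from separate mice, so p-values measure only the spread between these sections. Results compare cell classes within the same sections, not conditions.

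The cells of connective tissue in a peripheral ganglion form the capsule, the sheaths around nerve fascicles and the loose matrix around vessels and neurons. Fibroblasts in such tissue secrete collagens, small leucine-rich proteoglycans, elastic fibre proteins and proteins that bind growth factors. They share the ganglion with sensory neurons, satellite glia and Schwann cells, endothelium, mural cells, fat cells and macrophages.

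The deposited table held 470 genes, with 2716 to 3858 cells and 70313 to 108121 transcripts per section. Median totals were 7 to 9 transcripts per cell. No cell barcode was shared between sections (0 shared), and every cell was mapped to a section (0 unmapped). Events of control probes, control codewords and blank codewords were 0.0404% of events in all cells and 0.0304% in the fibroblast-gated cells (1 event).

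The fibroblast-gated cells numbered 51, 54 and 93 in sections 1, 2 and 3. They made up 3.23% of the cells with at least 8 transcripts in section 1 (95% exact Clopper-Pearson interval 2.42% to 4.23%), 3.54% in section 2 (2.67% to 4.59%) and 4.12% in section 3 (3.34% to 5.02%). The mean over sections was 3.63% ± 0.449 (SD, n = 3), and the 3 intervals overlapped. The cells held 765, 870 and 1657 transcripts in all, with a median of 15 per cell, so a single cell is a shallow measurement and all levels below rest on sums per section. Intervals cover counting error only.

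The thresholds chose these cells among many near the limits. Of the cells with at least 8 transcripts, 294 had at least 2 transcripts of the connective tissue genes, and 69 of these were left out for 2 or more neuron-list transcripts, 14 for the endothelial list, 14 for *Prx* and 9 for the fat list, with some cells over more than 1 limit. Just inside the limits were 79 cells with exactly 2 connective tissue transcripts and 15 cells with exactly 8 transcripts in all. Just outside were 254 cells with 1 connective tissue transcript and 10 cells with 7 transcripts in all that met the other limits. No transcript of any other gate list was present in 133 of the 198 cells.

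The genes of the gate are described here without a test, because they chose the cells. *Comp*, cartilage oligomeric matrix protein, had 52, 69 and 109 transcripts in sections 1, 2 and 3 and was present in 94 of the 198 cells. *Aspn*, asporin, a small leucine-rich proteoglycan, had 37, 43 and 74 transcripts (89 cells). *Lum*, lumican of the same proteoglycan family, had 43, 31 and 58 transcripts (78 cells). These genes were present in each section, and none of them was in a majority of the cells.

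*Mfap4*, a microfibril-associated glycoprotein, had 21, 25 and 39 transcripts (62 cells). *Dpt*, dermatopontin, a small matrix protein that binds decorin, had 21, 13 and 25 transcripts (50 cells). *Mfap5*, another microfibril protein, had 7, 11 and 7 transcripts (20 cells), and *Pi16*, a peptidase inhibitor known as a marker of adventitial fibroblasts, had 1, 4 and 14 (15 cells). Of the 19 *Pi16* transcripts, 14 were in section 3.

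A cell rarely showed the whole set. A single gene of the 7 was detected in 58 cells, 2 genes in 84 cells, 3 in 45, 4 in 8 and 5 in 3. The pair found together most often was *Comp* with *Aspn* (48 cells), followed by *Comp* with *Mfap4* (41 cells) and *Mfap4* with *Aspn* (31 cells). *Lum* was found with *Comp* in 26 cells and with *Dpt* in 9 cells.

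The same 7 genes gave the background in cells gated as other types, which were allowed at most 1 of these transcripts. *Comp* was present in 47.5% of the fibroblast-gated cells (median total 15 transcripts), in 0.849% of neuron-gated cells (median 67) and in none of 906 fat-gated cells (median 20), which allows a share of up to 0.331%. *Lum* had the highest share of the 7 genes in endothelial-gated and neuron-gated cells, and was present in 39.4% of the fibroblast-gated cells, 9.59% of endothelial-gated cells and 7.57% of neuron-gated cells. *Mfap5* was present in 10.1% of the fibroblast-gated and 4.75% of Schwann-gated cells.

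**Figure D1:**
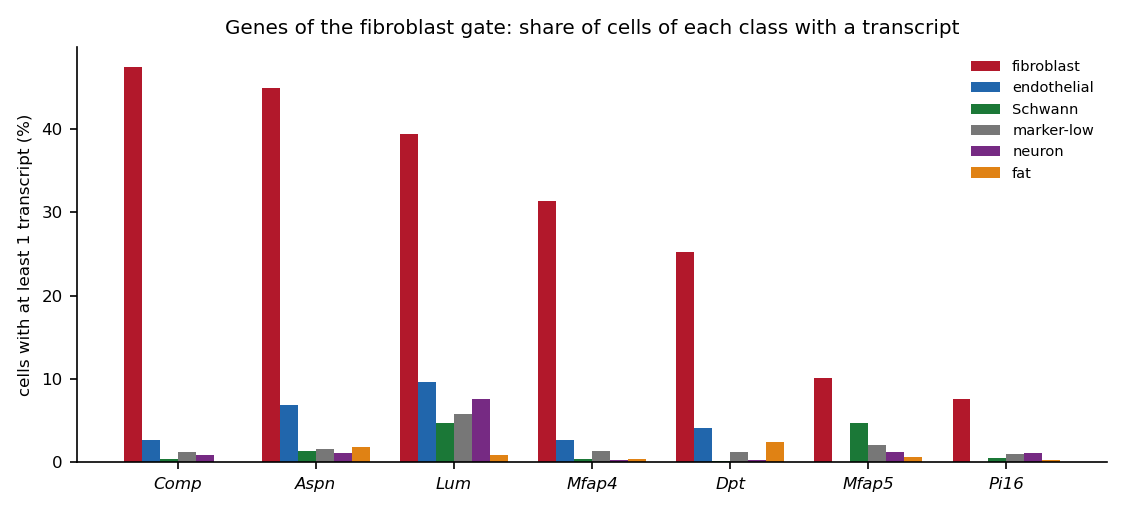
Share of cells (%) with at least 1 transcript of each gene of the connective tissue gate, for the 6 cell classes (198 fibroblast-gated cells and 73 to 1767 cells in the others). The genes chose the cells, so the heights are a description: *Comp* stands at 47.5% in the fibroblast-gated cells, and *Lum* also reaches 9.59% of endothelial-gated cells.

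For the tests, cells of the other types were gated in the mirror way: at least 8 transcripts, at least 2 of their own list and at most 1 of each other list. This gave 73 endothelial-, 569 Schwann-, 906 fat- and 1532 neuron-gated cells, and 1767 marker-low cells with at most 1 transcript of every list. A further 318 cells were over more than 1 limit and entered no class. The 22 gate genes were left out of totals and tests, which left 568, 657 and 1293 transcripts for the fibroblast-gated cells and 225, 291 and 532 for the endothelial-gated cells in sections 1, 2 and 3. Levels are given as CPM, counts scaled to the total of those other transcripts and set to the same sum in every class and section. CPM ratios pool the 3 sections on this scale. Log2 fold changes and p-values come from a fit that also uses TMM scaling of the sums, so the sizes can differ. Probes differ in how well they detect their target, so levels are compared between classes for the same gene and not between genes.

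Of the 448 genes outside the gates, 281 had at least 1 transcript in the fibroblast-gated cells, 60 had at least 10, and 167 had 0. *Ptn* (240 transcripts) and *Bgn* (225) were 9.53% and 8.94% of all these transcripts. *Ptn* was present in 99 cells, *Bgn* in 110, and both in 68 of the 198 cells.

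After the filter on low counts, 137 genes were tested against each of the other 5 classes with edgeR's quasi-likelihood test, and 7 were higher in the fibroblast-gated cells than in every other class (5.11% of genes tested). They were *Bgn*, *Ptn*, *Ccdc80*, *Fbln5*, *Pcolce2*, *Serpinf1* and *Trpm3*. *Pcolce2* passed the filter only through the fibroblast-gated sums, where it is high, so its place among the genes tested was not independent of the result. With no filter it was still called higher than in every other class. The 5 comparisons share the fibroblast-gated sums, so they are not independent of each other. Of the 7, 6 stayed with library size alone (without *Fbln5*) and 6 with DESeq2 (without *Trpm3*), but 3 with no filter, 3 with cells of at least 20 transcripts, and only *Bgn* with limma.

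The 7 genes include matrix proteins, secreted factors and a channel. *Bgn* encodes biglycan, a small leucine-rich proteoglycan of collagen fibrils (chromosome X, 73483602 to 73495933, plus strand, GRCm38). *Ccdc80* encodes a secreted matrix-associated protein (chromosome 16, 45093402 to 45128077, plus strand). *Fbln5* encodes fibulin 5, which acts in elastic fibre assembly (chromosome 12, 101746565 to 101819055, minus strand). *Pcolce2* encodes an enhancer of procollagen C-proteinase (chromosome 9, 95637601 to 95698096, plus strand). *Ptn* encodes pleiotrophin, a heparin-binding growth factor (chromosome 6, 36714929 to 36810220, minus strand). *Serpinf1* encodes pigment epithelium-derived factor, a secreted serpin (chromosome 11, 75409769 to 75422701, minus strand). *Trpm3* encodes a cation channel of the TRP family (chromosome 19, 22139046 to 22995410, plus strand).

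*Bgn* had 61, 50 and 114 transcripts in the fibroblast-gated cells of sections 1, 2 and 3, or 107390, 76104 and 88167 CPM. Its mean of 90555 CPM ± 15782 (SD, n = 3) compared with 21280 ± 3718 in endothelial-gated cells, 13009 ± 1879 in marker-low cells and 5694 ± 1557 in Schwann-gated cells. All 3 sections lay above every section of the other classes. The log2 fold change was 2.51 (SE 0.36) against endothelial-gated cells, with an adjusted p of 3.49e-09 in edgeR's quasi-likelihood test. Against Schwann-gated, marker-low, neuron-gated and fat-gated cells it was 3.28, 2.53, 5.10 and 3.77.

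*Ptn* had 70, 55 and 115 transcripts, or 123240, 83714 and 88940 CPM. The mean of 98631 CPM ± 21471 (SD, n = 3) stood beside 54217 ± 13850 in endothelial-gated cells, the next class, and beside 26649 ± 1496 in marker-low cells. The sections of the 2 leading classes did not overlap. The log2 fold change was 1.23 (SE 0.28) against endothelial-gated cells, with an adjusted p of 2.20e-04 in edgeR's test, and 2.13, 1.59, 1.75 and 4.28 against Schwann-gated, marker-low, neuron-gated and fat-gated cells. Against endothelial-gated cells it was 0.74 with library size alone, and the call was lost with limma (0.89, adjusted p 0.280) and with only the 2 classes compared (0.57, adjusted p 0.161).

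*Pcolce2* had 8, 9 and 27 transcripts in the fibroblast-gated cells and 0 in each section of the endothelial-gated cells. Against a floor of 3 counts over the 3 endothelial sums, its level was 6.10-fold higher (adjusted p 1.0e-05, edgeR). This fold leaves out the counting error of its own transcripts, and the gene entered the test only through the fibroblast-gated sums. In Schwann-gated cells it had 1, 0 and 2 transcripts, a CPM ratio of 37.4 (95% counting interval 12.0 to 188). The fitted log2 fold change there was 4.37 (SE 0.69). The log2 fold change against marker-low cells was 2.82 (SE 0.44). With limma the *Pcolce2* call was lost against marker-low (adjusted p 0.293), neuron-gated (0.191) and fat-gated cells (0.0786).

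*Serpinf1* had 15, 17 and 23 transcripts against 0, 0 and 2 in endothelial-gated cells, a CPM ratio of 11.4 (95% counting interval 3.02 to 96.9). It was higher than in Schwann-gated cells by a log2 fold change of 2.56 (SE 0.48) and than in marker-low cells by 1.95 (SE 0.36). The adjusted p-values in edgeR's test were 1.93e-05, 1.93e-06 and 1.80e-06 in that order. Its 55 transcripts were spread over 47 cells. Against neuron-gated cells the *Serpinf1* call was lost with no filter (0.65, adjusted p 0.108) and with cells of at least 20 transcripts (0.93, adjusted p 0.191). With limma it was lost against neuron-gated (adjusted p 0.350), marker-low (0.580) and fat-gated cells (0.0836).

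*Ccdc80* had 9, 17 and 32 transcripts. A single transcript was found in all Schwann-gated cells together, a CPM ratio of 148 (95% counting interval 25.5 to 5941). The log2 fold change of the fit, with TMM scaling, was 6.30 (SE 0.79) there. The log2 fold change was 2.24 (SE 0.59) against endothelial-gated cells and 3.20 (SE 0.40) against marker-low cells. Without section 3 the change against endothelial-gated cells was 2.33 with an adjusted p of 0.0772 (edgeR), and that against neuron-gated cells was 0.75 (adjusted p 0.112). With limma the first had an adjusted p of 0.404. Without section 2 that against fat-gated cells was 1.05 (adjusted p 0.0548). Against neuron-gated cells the change fell to 0.27 with no filter (adjusted p 0.596, edgeR) and 0.47 with only the 2 classes compared (0.224). With cells of at least 20 transcripts it was 0.78 there (0.219), and limma gave an adjusted p of 0.260.

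*Fbln5* had 20, 16 and 28 transcripts, or 27073 CPM ± 7176 (SD, n = 3), against 14267 ± 3281 in endothelial-gated cells. The log2 fold change of 1.43 (SE 0.50) against the latter had an adjusted p of 0.0320 in edgeR's test. This call was lost with library size alone (0.95, adjusted p 0.182) and without section 1 (1.41, adjusted p 0.140), section 2 (1.58, adjusted p 0.0744) or section 3 (1.40, adjusted p 0.191). Against neuron-gated cells it was 1.35 with all sections and 0.74 without section 1 (adjusted p 0.0548). There it fell to 0.20 with no filter (adjusted p 0.655), 0.41 with cells of at least 20 transcripts (0.503) and 0.38 with only the 2 classes compared (0.307). Against Schwann-gated and marker-low cells it was 2.18 and 1.48. The marker-low call was lost with limma (adjusted p 0.0678) and with cells of at least 20 transcripts (0.115, edgeR).

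*Trpm3* was the least even of the 7, with 13, 8 and 41 transcripts and 22887, 12177 and 31709 CPM. Against endothelial-gated cells, with 1 transcript in each section, the CPM ratio was 8.60 (95% counting interval 2.81 to 42.8, adjusted p 6.33e-05 in edgeR's test). Against Schwann-gated cells the log2 fold change was 1.12 (SE 0.40), and the adjusted p was 0.0614 with DESeq2 and 0.0813 with limma. In section 2 the level was 12177 against 8579 CPM, an order that turned after TMM scaling. Section 3 weighed on the gene: without it the adjusted p was 0.0984 against endothelial-gated, 0.280 against Schwann-gated, 0.122 against marker-low and 0.945 against neuron-gated cells, where the log2 fold change went from 1.02 to 0.04. With no filter that against neuron-gated cells was −0.10 (adjusted p 0.837). Without section 1 it was 1.08 (adjusted p 0.0584) against Schwann-gated and 0.71 (adjusted p 0.0703) against neuron-gated cells.

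**Figure D2:**
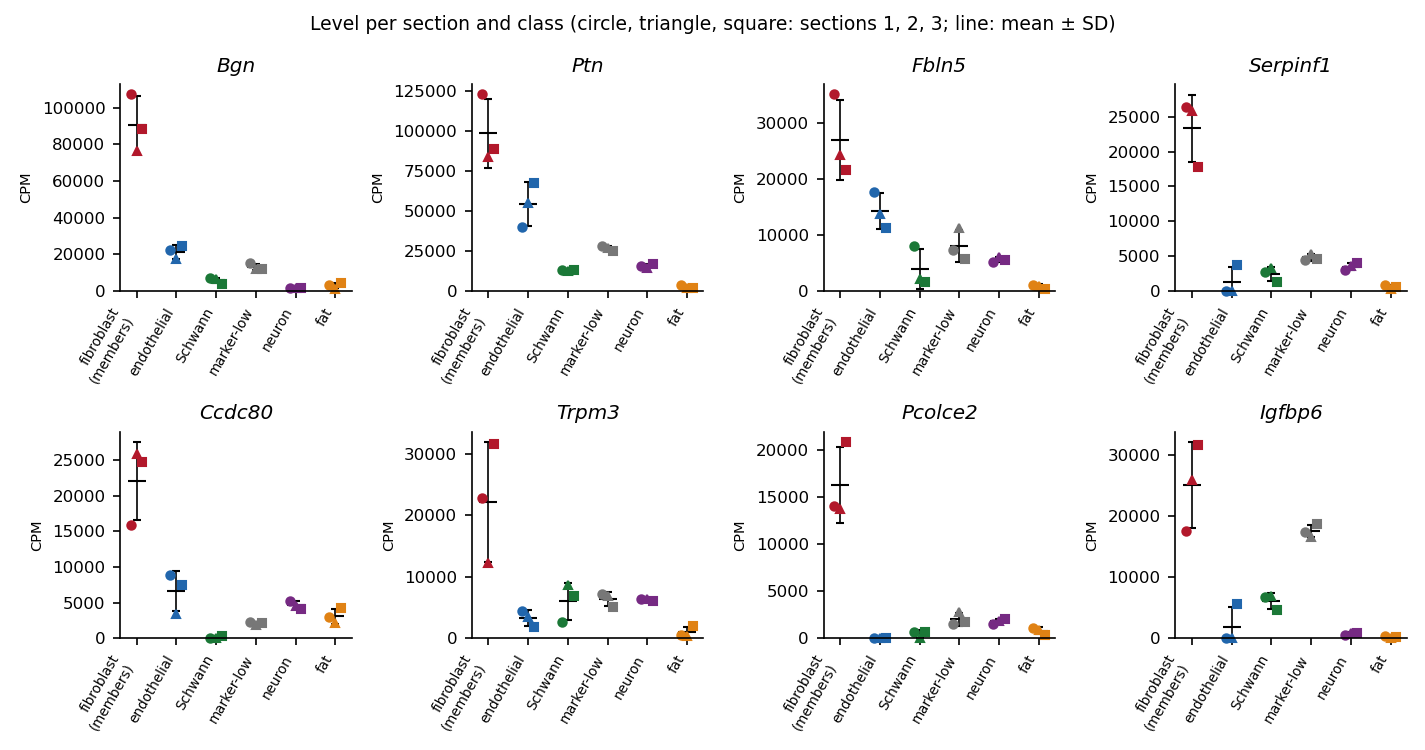
Level (CPM of the genes outside the gates) in each of 3 sections for 6 cell classes, with the mean and SD, for the 7 genes higher than in every other class and for *Igfbp6*. *Bgn* lies at 76104 to 107390 CPM in the fibroblast-gated cells, above every section of the other classes. The mean of *Igfbp6* in marker-low cells (17568 CPM) lies just below the lowest fibroblast section (17606 CPM).

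Endothelium lines the vessels that run through the same connective tissue. Against endothelial-gated cells, 12 of 137 genes were higher (8.76%) and 6 lower (4.38%) in the fibroblast-gated cells. With library size alone the split was 9 higher and 11 lower, and the median log2 fold change of all tested genes moved from 0.20 to −0.25. The changes are therefore read beside a median that is not at 0.

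Higher than in endothelial-gated cells, beside the 7 genes above, were *Igfbp6*, *Nbl1*, *Thbs4*, *H2-Ab1* and *S100a4*. *Igfbp6*, which binds insulin-like growth factors, had 10, 17 and 41 transcripts against 0, 0 and 3, a CPM ratio of 9.43 (95% counting interval 3.09 to 46.9). *Thbs4*, thrombospondin 4, of the same protein family as *Comp*, had 7, 13 and 8 against 0, 1 and 1, a ratio of 5.83 (1.47 to 50.5). *Nbl1*, a secreted BMP antagonist, had 12, 15 and 22 against 4, 0 and 4 (log2 fold change 1.84, SE 0.58). The fibroblast-gated cells were higher in each section for these genes.

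The calls of *Thbs4*, *Nbl1* and *S100a4* were not stable. *Nbl1* had an adjusted p of 0.0855 with library size alone, 0.177 without section 2 0.112 without section 3, 0.274 with limma and 0.0622 with no transcript of another list, against 0.0148 with all sections (edgeR). *Thbs4* had 0.0634 without section 1, 0.124 without section 2 and 0.0624 with limma. *S100a4*, a calcium-binding protein of motile cells, had 2, 5 and 4 transcripts against 0 in each endothelial sum. Against a floor of 3 counts this was 1.53-fold higher, without counting error on those transcripts. Its adjusted p was 0.0816 with library size alone, 0.0878 without section 1, 0.209 without section 2 and 0.0798 with no transcript of another list.

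The 6 genes lower than in endothelial-gated cells were *Rgs5*, *Myh11*, *Podxl*, *Mustn1*, *Alox12* and *H2-K1*. *Rgs5*, a pericyte gene, had 0, 0 and 1 transcripts against 3, 6 and 10, a CPM ratio of 0.0219 (95% counting interval 5.27e-04 to 0.138). *Myh11*, smooth muscle myosin heavy chain, had 0, 0 and 3 against 3, 3 and 12 (ratio 0.0694, 0.0131 to 0.238). *Podxl*, podocalyxin of the endothelial surface, had 3, 1 and 3 against 4, 10 and 14 (log2 fold change −2.80, SE 0.63). *Mustn1*, a muscle gene, and *Alox12*, a lipoxygenase, had 0 in each fibroblast sum against 1, 1 and 5 each. Both had a CPM ratio of 0 (95% counting interval 0 to 0.289).

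*H2-K1*, a class I histocompatibility gene, had 12, 9 and 31 transcripts against 15, 20 and 29 in endothelial-gated cells. Its log2 fold change was −1.13 (SE 0.32, adjusted p 0.00612 in edgeR's test), and −0.75 without section 2 (adjusted p 0.157). Without section 2 the adjusted p of both *Mustn1* and *Alox12* was 0.0623, and without section 3 that of *Myh11* was 0.0655. For *H2-K1* the call was also lost with no filter (−0.81, adjusted p 0.226), at least 3 list transcripts (−0.36, adjusted p 0.652), no transcript of another list (−0.69, adjusted p 0.234) and at least 20 transcripts (−0.85, adjusted p 0.438). At least 3 list transcripts also ended the calls of *Myh11* (adjusted p 0.715), *Mustn1* (0.0509) and *Thbs4* (0.0989), and at least 20 transcripts those of *Podxl* (0.526), *Rgs5* (0.190), *Nbl1* (0.340) and *Thbs4* (0.316). *Alox12* had 0.198 with no transcript of another list.

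Schwann cells ensheath the axons that run between the connective tissue layers. Against Schwann-gated cells, 23 of 137 genes were higher (16.8%) and 28 lower (20.4%) in the fibroblast-gated cells. With library size alone 36 were higher and 20 lower, and the median of all tested genes moved from −0.32 to 0.49 (log2).

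Beside the 7 genes above, *C3*, the central complement component, had 2, 3 and 9 against a single transcript, a CPM ratio of 35.7 (95% counting interval 5.43 to 1510). The fitted log2 fold change was 4.255 (SE 1.12). This call was lost with at least 3 list transcripts per cell (adjusted p 0.143) and with no transcript of another gate list (adjusted p 0.0748). In fat-gated cells, however, *C3* stood at 54531 CPM ± 3182 (SD, n = 3), against 5016 ± 1763 in the fibroblast-gated cells.

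*Col8a1*, a short-chain collagen, had 3, 8 and 8 transcripts against a single transcript in Schwann-gated cells (ratio 48.4, 95% counting interval 7.70 to 2013). Its fitted log2 fold change was 4.71 (SE 1.075). *Mylk*, myosin light chain kinase, had 7, 10 and 5 against 2, 0 and 2 (log2 fold change 3.09, SE 0.77), and 2.16 without section 2 (adjusted p 0.0623, edgeR). *Prss23*, a secreted serine protease, had 7, 8 and 24 against 3, 3 and 8 (2.02, SE 0.52). *Igfbp6* had a log2 fold change of 1.37 (SE 0.40), with an adjusted p of 0.157 without section 3. *F13a1*, a transglutaminase subunit, had 1, 3 and 14 transcripts against 0, 3 and 5 (1.67, SE 0.70). Its call was lost without section 1 (adjusted p 0.0507), with DESeq2 (0.0661), limma (0.171), no filter (0.0817), cells of at least 10 transcripts (0.0644) and no transcript of another list (0.0748). With limma the calls of *Serpinf1*, *Mylk*, *Igfbp6*, *Kcna1*, *Sostdc1* and *Ccn3* against Schwann-gated cells were also lost, at adjusted p-values of 0.334, 0.120, 0.615, 0.407, 0.0753 and 0.634, and with cells of at least 20 transcripts those of *Fbln5* (0.135), *Igfbp6* (0.193), *Trpm3* (0.0997) and *Prss23* (0.281).

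Several of the 28 genes lower than in Schwann-gated cells are genes of myelin and glia. *Pmp22*, a myelin membrane protein, had 5, 9 and 19 transcripts, or 12399 CPM ± 3154 (SD, n = 3), against 128070 ± 8710 (log2 fold change −4.08, SE 0.26). *Ndrg1*, which is needed for peripheral myelin upkeep, stood at 12961 ± 4600 against 92446 ± 4354 CPM (−3.66, SE 0.27). *Gatm*, a creatine synthesis enzyme, and *Kcna1*, an axonal potassium channel gene, had log2 fold changes of −3.72 (SE 0.33) and −3.83 (SE 0.35). No section of the fibroblast-gated cells overlapped with the Schwann-gated ones in these genes.

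*Timp3*, a matrix-bound inhibitor of metalloproteinases, was lower than in both Schwann-gated and marker-low cells. It had 10, 12 and 26 transcripts in the fibroblast-gated cells, or 18660 CPM ± 1297 (SD, n = 3), against 38001 ± 2650 in Schwann-gated and 29834 ± 2320 in marker-low cells. The log2 fold changes were −1.79 (SE 0.29) and −0.93 (SE 0.29), with adjusted p-values of 2.83e-08 and 0.00546 (edgeR). Against Schwann-gated cells the change was −0.95 with library size alone, and limma's adjusted p was 0.180. Against marker-low cells the call was lost without section 1 (−0.75, adjusted p 0.0505), with limma (adjusted p 0.364) and with cells of at least 20 transcripts (−0.62, adjusted p 0.357). *Timp3* was higher than in neuron-gated and fat-gated cells.

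Marker-low cells, with at most 1 transcript of every gate list, are the largest class and a mixture that the gates do not name. Of them 30.9% held a *Prx* transcript, against 9.6% of the fibroblast-gated cells. The summed level of 8 other glial genes had a mean of 132730 CPM in them, against 27510 in the fibroblast-gated cells. For glial genes this comparison is therefore not separate from that with Schwann-gated cells. Against marker-low cells, 14 of 137 genes were higher (10.2%) and 35 lower (25.5%). With library size alone the split was 20 and 31 and with DESeq2 17 and 24, and the median of all tested genes was −0.69 (log2) in the TMM scaling and −0.43 with library size alone.

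Beside the 7 genes, *Col8a1* (log2 fold change 2.33, SE 0.60), *Mylk* (1.96, SE 0.53), *Prss23* (1.59, SE 0.41), *Pou3f3* (2.56, SE 0.78), *H2-Eb1* (2.32, SE 0.73), *Calcrl* (1.51, SE 0.53) and *Mecom* (1.37, SE 0.54) were higher than in marker-low cells. *Pou3f3* and *Mecom* encode transcription factors, and *Calcrl* a receptor for calcitonin gene-related peptide and adrenomedullin. *Calcrl* had 5, 5 and 9 transcripts in the fibroblast-gated cells, or 7791 CPM ± 934 (SD, n = 3), against 2115 ± 600 in marker-low and 28868 ± 23508 in endothelial-gated cells. Its call was lost without section 1, 2 or 3, with adjusted p-values of 0.0505, 0.113 and 0.0792 (edgeR). Without section 3 *Col8a1* had an adjusted p of 0.0549 and *Prss23* of 0.123, without section 2 *Mylk* of 0.167, and without section 1 *H2-Eb1* of 0.0649. With limma, only *Bgn*, *Ptn* and *Prss23* were higher than in marker-low cells (3 of 137).

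The glial genes were lower here too, at −2.38 (SE 0.28) for *Ndrg1*, −2.03 (SE 0.28) for *Pmp22*, −2.82 (SE 0.36) for *Kcna1* and −2.43 (SE 0.34) for *Gatm*. *H2-K1* was lower by a log2 fold change of −1.07 (SE 0.26). With limma the calls of *H2-K1* (adjusted p 0.245) and *Kcna1* (0.514) were lost. With cells of at least 20 transcripts those of *H2-K1* (−0.49, adjusted p 0.468) and *Pmp22* (−0.96, adjusted p 0.25) were lost in edgeR's test. *Igfbp6* and *Nbl1*, each higher than in endothelial-gated cells, did not pass the test here, with CPM means of 17568 and 11647 in marker-low cells and 25063 and 20324 in the fibroblast-gated cells.

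**Figure D3:**
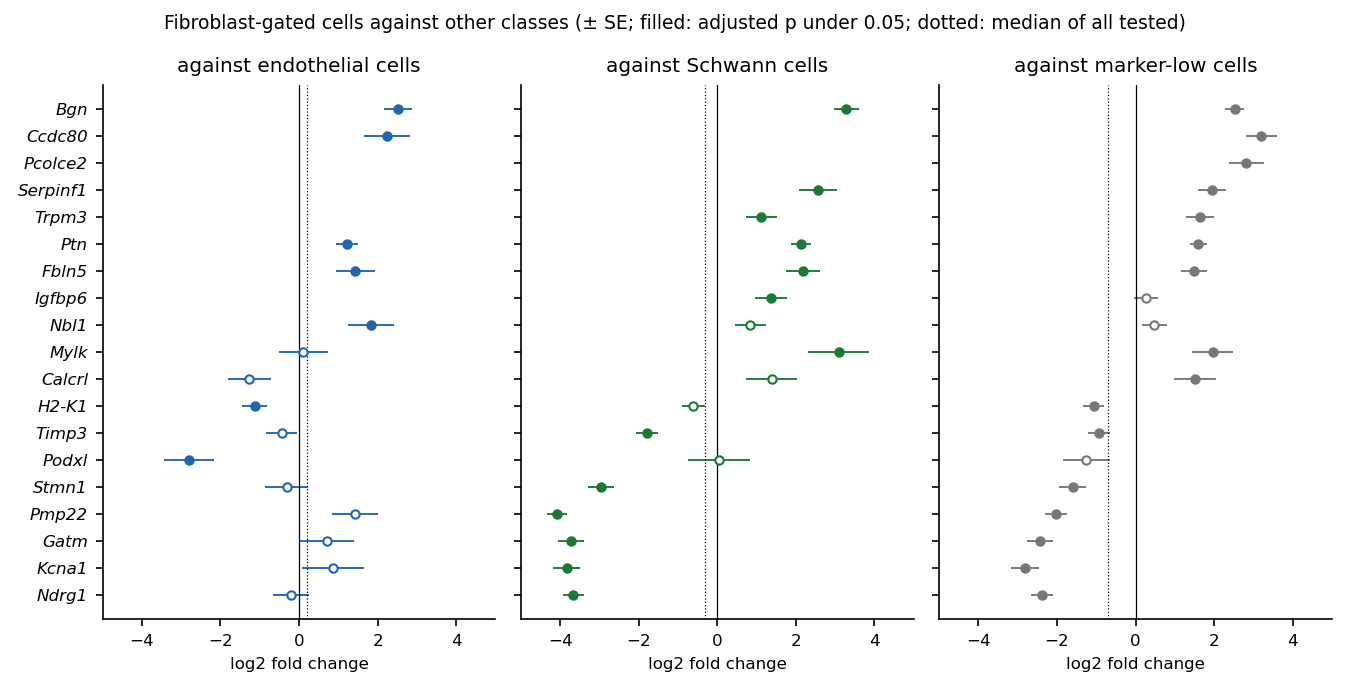
Log2 fold change (± SE) of 19 genes between fibroblast-gated cells and endothelial-gated, Schwann-gated and marker-low cells, from sums of 3 sections; filled points passed an adjusted p of 0.05 and dotted lines mark the median of all 137 tested genes. Genes with 3 or fewer transcripts in a class are not drawn there. *Bgn* lies between 2.51 and 3.28 in the 3 panels, and *Pmp22* at −4.08 against Schwann-gated cells.

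Neurons and fat cells were compared in the same fit. Against neuron-gated cells 103 of 137 genes differed (75.2%), 43 higher (31.4%) and 60 lower (43.8%), and the split was 54 and 43 with library size alone. Against fat-gated cells 39 were higher (28.5%) and 35 lower (25.5%), and the split was 57 and 25 with library size alone. The median of all tested genes moved from −0.73 to 0.28 and from 0.21 to 1.47 (log2) between these scalings. Of these comparisons the 7 genes above are described here.

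By list, 11 of the 16 panel genes for matrix and secreted matrix-associated proteins were tested. Against endothelial-gated cells 5 were higher and 0 lower, with a list median log2 fold change of 1.45 against 0.20 for all genes tested. Against Schwann-gated cells 6 were higher and 1 lower (median 2.18 against −0.32), and against marker-low cells 5 were higher and 1 lower (1.48 against −0.69). The gene lower in the last 2 was *Timp3*. *Pcolce2*, which passed the filter only through the fibroblast-gated sums, is among the higher genes in each. Of all genes tested, 8.76% were higher and 4.38% lower than in endothelial-gated cells. The shares were 16.8% and 20.4% against Schwann-gated cells, and 10.2% and 25.5% against marker-low cells. The summed level of the 16 genes was 225350, 207000 and 222740 CPM in the fibroblast-gated cells of sections 1, 2 and 3, and its mean in endothelial-gated cells was 95857 CPM.

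Of 13 genes for secreted growth factors, their binding proteins and Wnt or BMP modulators, 8 were tested. Against endothelial-gated cells 4 were higher and 0 lower (*Nbl1*, *Igfbp6*, *Ptn* and *Serpinf1*). Against Schwann-gated cells 4 were higher (*Igfbp6*, *Ptn*, *Serpinf1* and *Vegfc*) and 3 lower (*Sfrp1*, *Sostdc1* and *Ccn3*), and against marker-low cells 2 were higher and 2 lower. Over all genes tested the shares were 8.76% higher and 4.38% lower than in endothelial-gated cells, and 16.8% and 20.4% against Schwann-gated cells. Against marker-low cells they were 10.2% and 25.5%, and there the 2 of 8 lower is a share near that of all genes. *Vegfc*, a lymphatic growth factor, had 2, 3 and 0 transcripts against 0 in each Schwann sum. Against a floor of 3 counts this was 4.25-fold higher, with no counting error on its few transcripts. The call was lost with DESeq2 (adjusted p 0.0667) and limma (0.196). *Sfrp1*, a secreted Wnt inhibitor, had 0, 0 and 5 transcripts in the fibroblast-gated cells against 11, 9 and 15 in Schwann-gated cells. *Sostdc1*, a BMP and Wnt antagonist, had 1, 1 and 0 against 8, 14 and 18.

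The lower calls also depended on the setting. *Sfrp1* and *Ccn3* had adjusted p-values of 0.104 and 0.0765 against Schwann-gated cells with library size alone (edgeR). *Sfrp1* had 0.160 without section 1 and 0.0561 without section 2, and *Ccn3* had 0.140 without section 1 and 0.129 without section 3. Against marker-low cells *Sostdc1* had 0.100 without section 3.

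Markers of other cell types were read in the same sums. Of 8 further glial genes, 6 were detected and *Gfap* and *Fxyd3* were at 0. Their summed level was 21127 to 32483 CPM in the fibroblast-gated cells, against a mean of 253690 CPM in Schwann-gated and 21342 CPM in endothelial-gated cells. All 6 tested glial genes were lower than in Schwann-gated cells, and none of the 6 was called against endothelial-gated cells. Over all genes 20.4% were lower than in Schwann-gated cells, and 13.1% were called in either direction against endothelial-gated cells. Of 17 further neuronal genes, 6 were at 0 and the summed level was 17015 to 36972 CPM against a mean of 290410 in neuron-gated cells, and all 14 tested were lower than in neurons, where 43.8% of all genes were.

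Of 12 smooth muscle and pericyte genes, *Cnn1*, *Pln*, *Mustn1* and *Higd1b* were at 0, and the summed level was 14695 to 29930 CPM against 41237 to 97744 in endothelial-gated cells. Of 7 tested, 3 were lower and 0 higher than in endothelial-gated cells (4.38% and 8.76% of all genes). Of 11 further endothelial genes, *Rbp7* and *Tcf15* were at 0, and the summed level was 31690 to 42618 CPM against a mean of 141620 in endothelial-gated cells. Its mean of 38433 CPM lay above those of marker-low (32244), Schwann-gated (21824) and neuron-gated cells (13021), and below that of fat-gated cells (66025). Of 8 tested, only *Podxl* was lower and 0 were higher than in endothelial-gated cells (4.38% and 8.76% of all genes). Of 7 further fat genes, *Aqp7* and *Retn* were at 0, and the summed level was 5282 to 13699 CPM against a mean of 240170 in fat-gated cells.

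Some lymphatic and macrophage transcripts were present. *Mmrn1*, a lymphatic endothelial gene, had 10, 4 and 7 transcripts in 15 fibroblast-gated cells, 9703 CPM ± 6853 (SD, n = 3), beside 12038 ± 4284 in endothelial-gated cells, and against 2 transcripts in Schwann-gated cells the CPM ratio was 26.8 (95% counting interval 6.54 to 235). Of the 4 cells with *Prox1*, the lymphatic transcription factor, 3 also held *Mmrn1*. Of 17 macrophage and myeloid genes, *Lst1* and *Cd5l* were at 0. The summed level of this list was 22887, 47184 and 27069 CPM in sections 1, 2 and 3. Its mean of 32380 CPM ± 12990 (SD, n = 3) was the highest of all classes. The mean was 25332 in marker-low, 21601 in endothelial-gated, 19680 in fat-gated, 17700 in Schwann-gated and 6904 in neuron-gated cells. In section 1 the level lay below that of marker-low cells (25050 CPM). Of 4 genes tested, *Laptm5* was higher and *Ncf4* lower than in Schwann-gated cells, and 0 were called against endothelial-gated cells. The gates set no limit on macrophage genes. The part of lymphatic and macrophage transcripts in the results above was not tested.

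**Figure D4:**
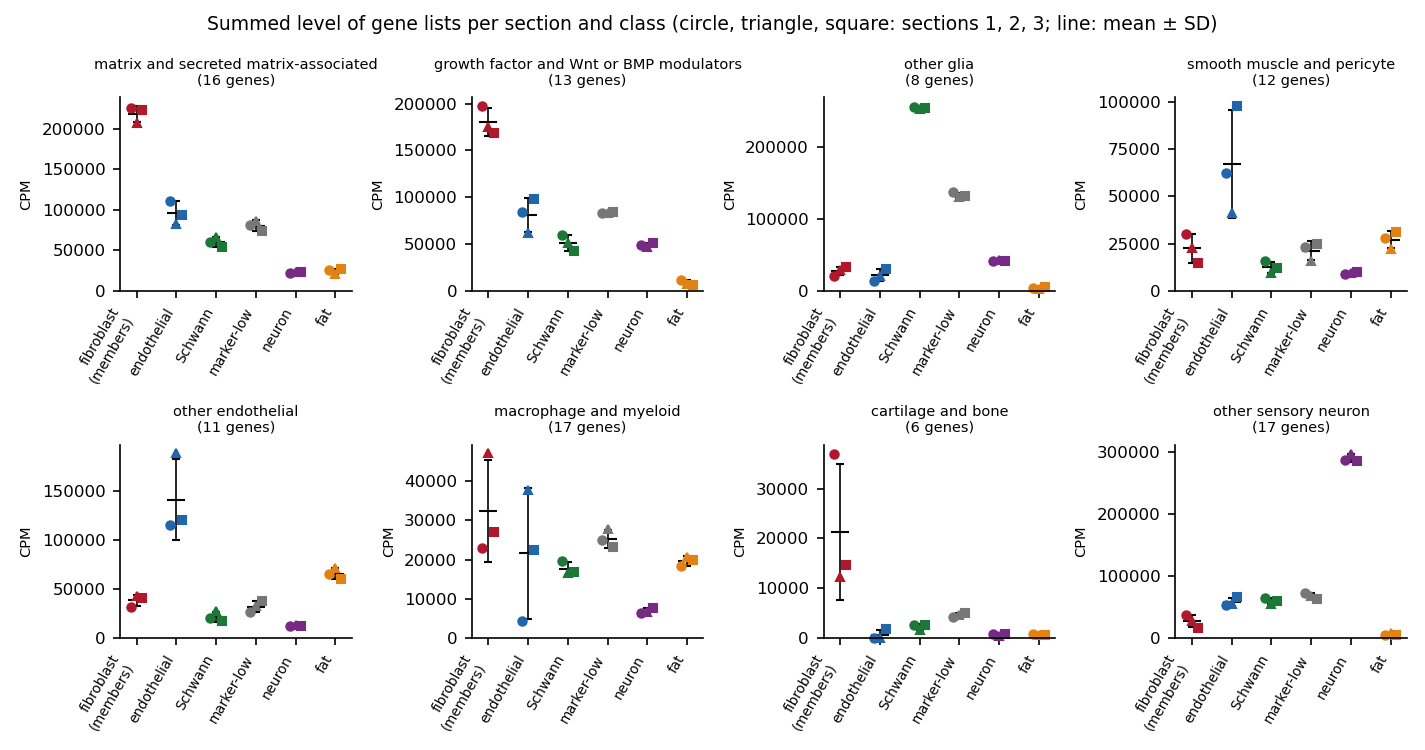
Summed level (CPM) of 8 gene lists in each of 3 sections for 6 cell classes, with the mean and SD. The matrix list lies at 207000 to 225350 CPM in the fibroblast-gated cells, the glial list at a mean of 253690 CPM in Schwann-gated cells, and the cartilage and bone list is uneven in the fibroblast-gated cells (12177 to 36972 CPM).

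Genes of immune function were sparse. The class II histocompatibility genes *H2-Ab1* and *H2-Aa* had 2, 11 and 2 and 1, 11 and 2 transcripts, mostly in section 2, and each was found in 9 cells, 4 of them shared. A single cell held 6 of the 15 *H2-Ab1* transcripts. *H2-Ab1* was at 0 in each endothelial sum (adjusted p 0.0112, edgeR). Its level was 2.08-fold higher against a floor of 3 counts, without counting error on its own transcripts. The adjusted p was 0.372 without section 2 and 0.0652 without section 3. The macrophage list was also highest in section 2, and its part in this difference was not tested.

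Of 19 chemokine and cytokine genes, 10 were detected, none passed the filter for the test, and the summed level was 8803 to 13921 CPM. *Cxcl1*, a neutrophil chemoattractant, had 0 transcripts, which allows up to 1191 CPM in the fibroblast-gated cells over the 3 sections. It stood at 1187 CPM ± 409 (SD, n = 3) in marker-low cells, so a difference was not detectable at this depth. Of 12 cytokine and pattern receptor genes only *Tnfrsf19* was tested, and it was not called against endothelial-gated, Schwann-gated or marker-low cells. The lymphocyte and mast cell list held 6 transcripts in all fibroblast-gated cells, and the list of dividing cells held 1.

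The cartilage and bone genes were uneven between sections. *Acan*, which encodes aggrecan, the large proteoglycan of cartilage, had 14, 3 and 1 transcripts in sections 1, 2 and 3, or 24648, 4566 and 773 CPM, and did not pass the filter. With no filter, *Acan* and *Runx2* were both called higher than in every other class. Its 18 transcripts lay in 14 cells, 12 of which also held *Comp*. *Runx2*, a transcription factor of bone and cartilage, had 3, 1 and 9 transcripts. *Sox9*, a transcription factor of cartilage that is also present in glia, had 2, 3 and 7 and was the only gene of this list tested. It was not called against endothelial-gated, Schwann-gated or marker-low cells. *Acan* was at 0 in endothelial-gated cells and at 580 CPM ± 228 (SD, n = 3) in marker-low cells.

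The fibroblast-gated cells were then divided by the gate genes themselves. *Comp* without *Dpt*, *Mfap5* or *Pi16* was found in 68 cells (18, 16 and 34 per section), *Dpt*, *Mfap5* or *Pi16* without *Comp* in 50 cells (15, 15 and 20), both in 26 and neither in 54. The first 2 subsets held 832 and 685 transcripts of the genes outside the gates. Only *Ptn* and *Bgn* passed the filter, and neither was called (0 of 2, 0%, with 0 at an unadjusted p under 0.05). With 2 genes left, the fit scales each against the other, so its fold changes are not levels and are not given. *Ptn* had 31, 27 and 55 transcripts in the *Comp* cells and 17, 3 and 24 in the others, a CPM ratio of 2.11 (95% counting interval 1.48 to 3.07). *Bgn* had 23, 14 and 39 and 17, 8 and 28, a CPM ratio of 1.18 (0.821 to 1.71). These intervals leave out the spread between sections.

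With no filter, 236 genes were tested between these subsets and 0 were called, with 10 at an unadjusted p under 0.05 (edgeR). That share is below the 0.05 that the threshold would give if no gene differed. The values of some of these 10 are given side by side, chosen after they were seen. *Ccdc80* had 6, 7 and 15 transcripts in the *Comp* cells and 0, 2 and 3 in the *Dpt*, *Mfap5* or *Pi16* cells. *Pcolce2* had 4, 8 and 13 against 3, 0 and 4. *Runx2* had 10 transcripts in the *Comp* cells and 0 in the others, and *Acan* 14 and 1.

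In the other direction, *C3* had 0 transcripts in the *Comp* cells and 2, 3 and 8 in the *Dpt*, *Mfap5* or *Pi16* cells. *Cav1*, caveolin 1, had 0, 1 and 2 against 2, 7 and 7. *Pmp22* and *Ndrg1*, the glial genes above, had 3 and 2 transcripts in the *Comp* cells and 14 and 16 in the others. The cells with neither *Comp* nor these 3 genes held 15 and 12, so *Pmp22* and *Ndrg1* were not particular to the *Dpt*, *Mfap5* or *Pi16* cells. None of these differences passed an adjusted p of 0.05.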

How the data were processed

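The deposited table holds raw counts per gene and segmented cell: the authors decoded the probe spots, segmented the cells and applied no scaling. The submitters' processing notes name Seurat, and the study's methods name Xenium Ranger at its defaults and Seurat, with further thresholds for cells or transcripts not given in the sources used here. The lung section was not analysed here. Sums per cell equalled the totals in the deposited metadata (0 cells differed), and genes were placed on GRCm38 with GENCODE annotation (470 of 470).

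Members, gates and gene lists were chosen with earlier results of these data known. The 22 gate genes were left out of totals and tests. Counts were summed per section for 6 classes and fitted together in edgeR 4.0.16 (R 4.3.3): section as a blocking factor, filterByExpr, TMM scaling, quasi-likelihood test, and Benjamini-Hochberg adjustment over all 137 genes tested, with calls at an adjusted p under 0.05. The classes of a section come from the same tissue, so the section number pairs the sums. Classes held 225 to 48523 transcripts per section outside the gates. No doublet caller was run, and a segmented cell can hold transcripts of its neighbours. The fit was also run on simulated data in which all classes shared the same profile apart from changes set in the fibroblast class. The real classes differ far more, so that simulation does not bear on the scaling between them.

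Named genes were those called with the same sign in all 3 sections, taken by size of fold change up to 10 in each direction, against endothelial-gated, Schwann-gated and marker-low cells, up to 4 tested genes of each list with the highest mean CPM, all gate genes, and further list members where a count was 5 or fewer. Not all of them are printed. *Prss23*, *Mecom*, *F13a1*, *Acan*, *Runx2* and *Cxcl1* were named after their values were seen. Folds against a class at 0 use 3 counts over its 3 sections and leave out the counting error of the fibroblast-gated cells. Ratios with 1 to 3 counts, or with 0 in the fibroblast-gated cells, carry 95% exact conditional binomial intervals. Neither uses the TMM scaling of the fit.

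Alternatives were library size alone, DESeq2 1.42.0, limma 3.58.1 on log2(CPM + 1), no filter, no block, each section left out, totals of at least 10 or 20, at least 3 transcripts of the own list, no transcript of any other list, gate genes kept, and only the 2 classes compared. Scripts used Python 3.11.15 with pandas 2.3.3 and scipy 1.17.1.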

Additional observations from a re-analysis of the deposited data

How the results depend on the processing

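The counts of genes called moved by over 1.5 times under a few settings. With limma they were 29 against endothelial-gated, 31 against Schwann-gated, 21 against marker-low, 41 against neuron-gated and 45 against fat-gated cells, in place of 18, 51, 49, 103 and 74. With cells of at least 20 transcripts, where 71 genes were tested, they were 8, 22, 21, 50 and 33 in that order. With gate genes kept the count against endothelial-gated cells was 36, and 1 of 4 genes was called between the subsets of members. This setting tests the genes that chose the cells and the subsets. Calls of those genes were fixed by the gate and are not a result. With only the 2 classes compared, which tested 10 and 31 genes, 2 and 26 were called against endothelial-gated and Schwann-gated cells. Leaving out a section gave 10 to 15, 37 to 48, 27 to 43, 86 to 101 and 57 to 58 calls, and 0 in every case between the subsets. The mean share of fibroblast-gated cells was 3.39% to 3.83% with a section left out, 1.89% with at least 20 transcripts, 2.15% with at least 3 list transcripts and 2.47% with no transcript of another list.

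Without the section block, the pairing of classes by section, 18, 51, 48, 102 and 75 genes were called, and the block changed no call of the 7 genes higher than in every class. Of these 7, 6 stayed with library size or DESeq2 (without *Fbln5* and *Trpm3* respectively), 1 with limma, 3 with no filter (which added *Acan* and *Runx2*) or at least 20 transcripts, 4 to 5 with a section left out, 6 with gate genes kept, *Bgn* with only the 2 classes compared, where 4 of the 7 were not tested against endothelial-gated cells, and 7 with at least 10 transcripts, at least 3 list transcripts or no transcript of another list. *Trpm3* against neuron-gated cells turned to −0.10 (log2) with no filter. Of 1024 values of named genes under alternatives, 889 kept their direction and side of the threshold and 134 kept the direction only. Causes were not tested. The comparison of the subsets could not be fitted with DESeq2 or at least 20 transcripts. Depth limits all of this: 2518 transcripts outside the gates in the fibroblast-gated cells.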
